A study of Mus musculus with 16 samples.

Results

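The comparison described here set 1 library of wild-type mouse lung fibroblasts that received full-length IL-33 (FL) against 2 libraries that received an empty control virus (NULL), and asked which genes moved with FL and not with mature IL-33 (M). All cells came from C57BL/6 mice, either wild type (WT) or labelled ST2 KO (KO). ST2, encoded by Il1rl1, is the receptor for IL-33. Primary lung fibroblasts were infected with AdV-FLIL33, AdV-MIL33 or AdV-NULL, with RNA prepared after 72 h. The 8 fibroblast libraries were WT NULL 1 and 2, WT FL, WT M, KO NULL 1 and 2, KO FL and KO M, so every IL-33 group held 1 library and only the NULL groups held a pair. The series has 16 samples. The other 8 are unseparated lung cells, which were not analysed here: the table assigned to them held the same values under the titles of the fibroblast samples (2 of 434648 values were not identical, with a largest relative difference of 6.46e-15), so the cell type rests on those titles. Genes entered the tests with a mean of at least 10 normalized counts over the 8 libraries, which left 15527 of 54331 listed genes. A gene was called at an adjusted p below 0.05. Of the tested genes, 1148 were called with FL, and 150 of these were not called with M.

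IL-33 is a cytokine of the IL-1 family that barrier and stromal cells of the lung hold in the nucleus. The full-length protein carries an amino-terminal region that binds chromatin, followed by the cytokine domain. Proteases released on injury cut off the nuclear region, and the resulting mature form binds ST2 and its partner IL1RAP on responding cells, which signal through MyD88 to NF-kB. Full-length IL-33 has therefore been studied both as a nuclear factor and as the precursor of the cytokine. The comparisons ask which transcripts differ with each form in WT fibroblasts and in those labelled KO.

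The transcript carried by the vectors was read first. Il33 had 193 and 201 normalized counts in WT NULL, 593840 in the WT FL library and 248956 in the WT M library. In the libraries labelled KO it stood at 216 and 214 in the NULL pair, 1080221 with FL and 81110 with M. Il33 normalized counts were thus 2.39-fold higher with FL than with M in WT. Counts were not scaled here by the length of the insert, so this is not a ratio of vector amounts. The amount of vector and the form of IL-33 cannot be told apart in these libraries. Il1rl1 had 18.3 and 106 normalized counts in WT NULL, 33.9 with FL and 70.7 with M, and 73.1, 69.2, 79.2 and 85.2 in the KO libraries. The Il1rl1 level was therefore not lower in the libraries labelled KO. A count over the whole gene can cover sequence outside a deleted part, so it does not check these labels, and KO stands here for the label. Fibroblast markers were present in every library, with summed levels of 789147 to 807552 in the WT NULL pair, 943855 with FL and 479786 with M.

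The WT M library stood apart from the other WT libraries, and this touches every statement on genes that moved with FL and not with M. Of 12559 genes with a mean of at least 50, 63 lay over 2-fold apart between WT NULL 1 and 2. The WT FL library differed in this way from WT NULL 1 at 271 genes and from WT NULL 2 at 280, and the WT M library at 1705 and 1743. In the WT M library 13 of 14 macrophage markers and 10 of 10 mesothelial markers were higher, and 16 of 19 fibroblast markers were lower, where 22.5% of all genes tested were higher and 26.8% lower. In the WT FL library 1 of 14 macrophage markers, Cd68, was higher, and 1 of 10 mesothelial markers, Upk3b, was lower, and both calls were lost on leaving out at least 1 NULL library (highest adjusted p 0.12 and 0.0755). Summed macrophage markers were 20101 and 21012 in the WT NULL pair, 20833 with FL and 47681 with M, and summed mesothelial markers 1512, 1533, 1271 and 5371. The part of these markers in the M values was not tested. In bulk RNA, fewer cells of a type and less RNA per cell cannot be told apart.

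In the FL library 543 genes were higher and 605 lower than in the WT NULL pair, which is 3.5% and 3.9% of the genes tested (7.39% in either direction). Of these, 165 and 66 differed by at least 2-fold, and the median log2 change over all genes tested was -0.02. With M, 7650 genes (49.3%) were called, 3492 higher (22.5%) and 4158 lower (26.8%). The 2 comparisons share the NULL pair. Of the 1148 genes called with FL, 893 were called with M in the same direction (5.75% of genes tested), 105 in the opposite direction (0.676%) and 150 not at all. The 150 genes were 87 higher and 63 lower with FL (0.966% of those tested). At 116 of them, 68 higher and 48 lower (0.747%), the difference between the FL and the M library was itself called in the same direction, while 5596 genes (36%) differed between these libraries in all. These 116 genes, of which 106 are protein coding and 27 changed by at least 2-fold, are called FL-selective here. They were chosen by the values of the 4 WT libraries, so those values describe them. The KO NULL pair also set the spread behind these calls, and all 8 libraries entered the filter on low values, so no library is wholly apart from the choice. The count of 1148 was 438 and 441 without KO NULL 1 or 2 and 984 and 825 without WT NULL 1 or 2, and 419, 425, 777 and 706 of the genes reported were shared. The count of 116 was 42, 43, 115 and 80, with 35, 35, 66 and 54 of the 116 shared.

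**Figure D1:**
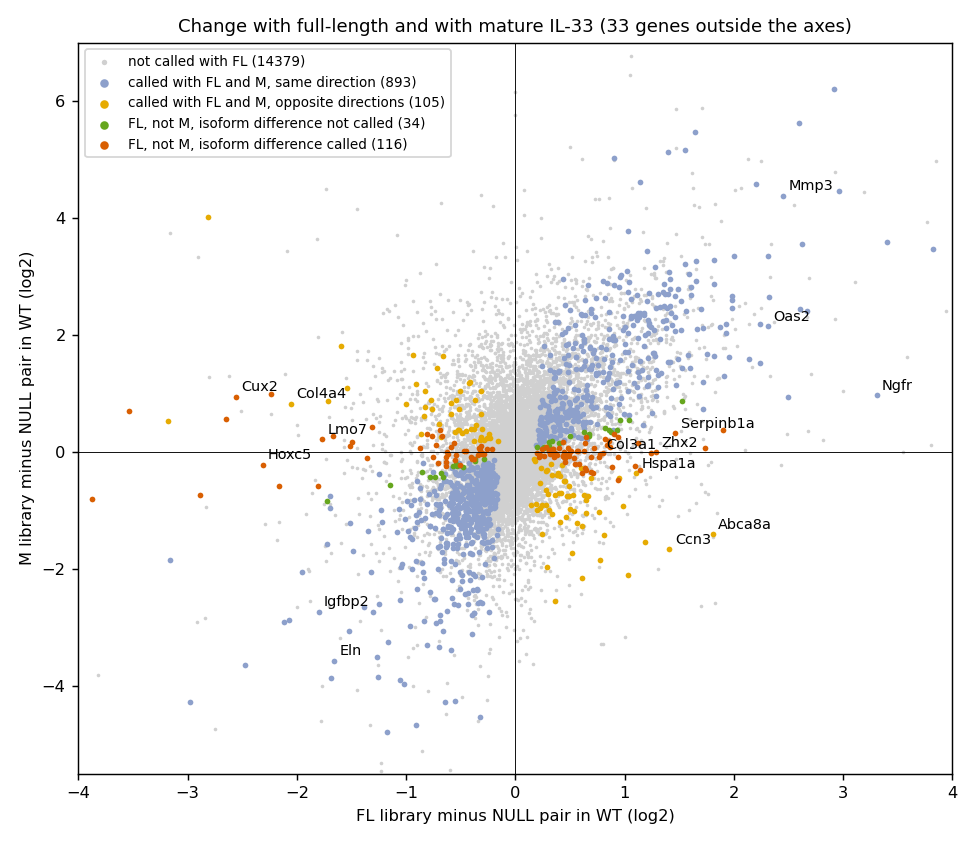
Each point is a gene, placed by its log2 change in the WT FL library (x axis) and in the WT M library (y axis), both against the WT NULL pair. The 116 FL-selective genes (orange) were chosen for having no call with M and so lie around the horizontal axis. Their M changes include -0.73 for Hoxd8 and 0.43 for Hoxc6, and 25 of the 116 had an M value inside the NULL range. The 105 genes with opposite changes lie in the upper left and lower right, and the 893 genes that moved alike lie on the rising diagonal. A further 33 genes fall outside the axes.

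At the edge of the threshold, Scn3b was the last gene called with FL (adjusted p = 0.0499) and Atxn1l the first not called (adjusted p = 0.0502). For M, Morc3 was the last called (adjusted p = 0.0486) and the predicted transcript AC124502.3 the first not called (adjusted p = 0.05002). A gene not called with M is not shown to be unmoved by it.

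Among the FL-selective genes that were higher, the largest changes under the naming rule belonged to an inhibitor of neutrophil proteases and to a transcriptional repressor. Serpinb1a, which blocks neutrophil elastase and related proteases, had 242 and 280 normalized counts in WT NULL, 721 with FL and 326 with M (FL against NULL log2 1.47, SE 0.13, adjusted p = 0.0019). The gene lies at chr13:32842092-32851185 on the minus strand (GRCm38). In the 4 KO libraries Serpinb1a lay between 273 and 316, so the WT FL library was the high one of the 8. Zhx2, a zinc finger and homeobox repressor, stood at 54.7 and 62.9 in the NULL pair, 144 with FL and 58.7 with M (log2 1.29, SE 0.15, adjusted p = 0.0047). All 4 KO libraries held more Zhx2 than any WT library, at 623 to 700. Cmah, the enzyme that makes the sialic acid Neu5Gc, stood at 264 and 254, then 555 with FL and 218 with M (log2 1.10, SE 0.14, adjusted p = 0.0062). The KO libraries lay between 235 and 282, so again the WT FL library was the highest of the 8.

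Matrix and signalling genes were also among the FL-selective rises. Col3a1, which encodes the fibrillar collagen III and lies at chr1:45311538-45349706, stood at 92981 and 97641 normalized counts in the NULL pair, 163501 with FL and 92951 with M (log2 0.78, SE 0.04, adjusted p = 0.00034). The FL library exceeded the other 3 WT libraries, and the KO libraries lay between them at 130991 to 146481. Medag, a gene of adipocyte differentiation, stood at 1318 and 1382, then 2424 with FL and 1464 with M (log2 0.84, SE 0.07, adjusted p = 0.0012), with KO libraries at 1213 to 1232. Pde1a, a calcium-dependent cyclic nucleotide phosphodiesterase, stood at 376 and 335, then 680 with FL and 336 with M (log2 0.94, SE 0.11, adjusted p = 0.0050). Serpinb1a, Zhx2, Cmah, Col3a1, Medag and Pde1a each kept their call when any 1 of the 4 NULL libraries was left out. The other large rises under the rule were Plekha4 (log2 1.14), Rtl3 (1.12), Thap1 (0.94), Col28a1 (0.94), Samd5 (0.88) and Sema6a (0.85). These calls were lost on leaving out at least 1 NULL library, with highest adjusted p values between 0.0559 for Thap1 and 0.115 for Rtl3.

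Among the FL-selective falls, 3 that kept their call are described first. Hoxc5, a homeobox gene of positional identity, had 136 and 140 normalized counts in WT NULL, 27.0 with FL and 119 with M (log2 -2.31, SE 0.22, adjusted p = 0.0021). The FL library was the lowest of the 8, with the KO libraries at 45.8 to 59.2. Id2, an inhibitor of helix-loop-helix transcription factors that BMP signals induce, stood at 1108 and 1165, then 734 with FL and 966 with M (log2 -0.63, SE 0.08, adjusted p = 0.0072). Its relative Id1 stood at 899 and 879, then 604 with FL and 808 with M (log2 -0.56, SE 0.08, adjusted p = 0.0130). These 3 falls kept their call whichever 1 of the NULL libraries was left out. Id1 and Id2, like Isg15, Ifit1, Ifih1, Tcf21 and Hoxd8 elsewhere, are named here after their values were seen.

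Further FL-selective falls under the rule were less stable. Lmo7, an actin-associated LIM domain protein, stood at 147 and 86.9 normalized counts in the NULL pair, 32.5 with FL and 132 with M (log2 -1.77, SE 0.30, adjusted p = 0.0186). Col4a3, a basement membrane collagen chain, stood at 77.1 and 78.0, then 26.8 with FL and 87.2 with M (log2 -1.50, SE 0.24, adjusted p = 0.0149). Cx3cr1, the fractalkine receptor, stood at 529 and 551, then 308 with FL and 668 with M (log2 -0.81, SE 0.12, adjusted p = 0.0125). In each of the 3 genes the FL library was the lowest WT library. Bmp5 (log2 -1.36), Creb5 (-0.88), Thnsl1 (-0.76), Pdlim3 (-0.75), Fam174b (-0.72), Serinc2 (-0.71), C2cd2 (-0.68), Ly75 (-0.67) and the histone methyltransferase gene Kmt2d (-0.64) completed the falls, together with Cux2 (-2.56), whose NULL values differed by more than 2-fold. All the genes named in this paragraph lost their call on leaving out at least 1 NULL library, with highest adjusted p values from 0.053 for Cx3cr1 to 0.105 for Cux2.

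**Figure D2:**
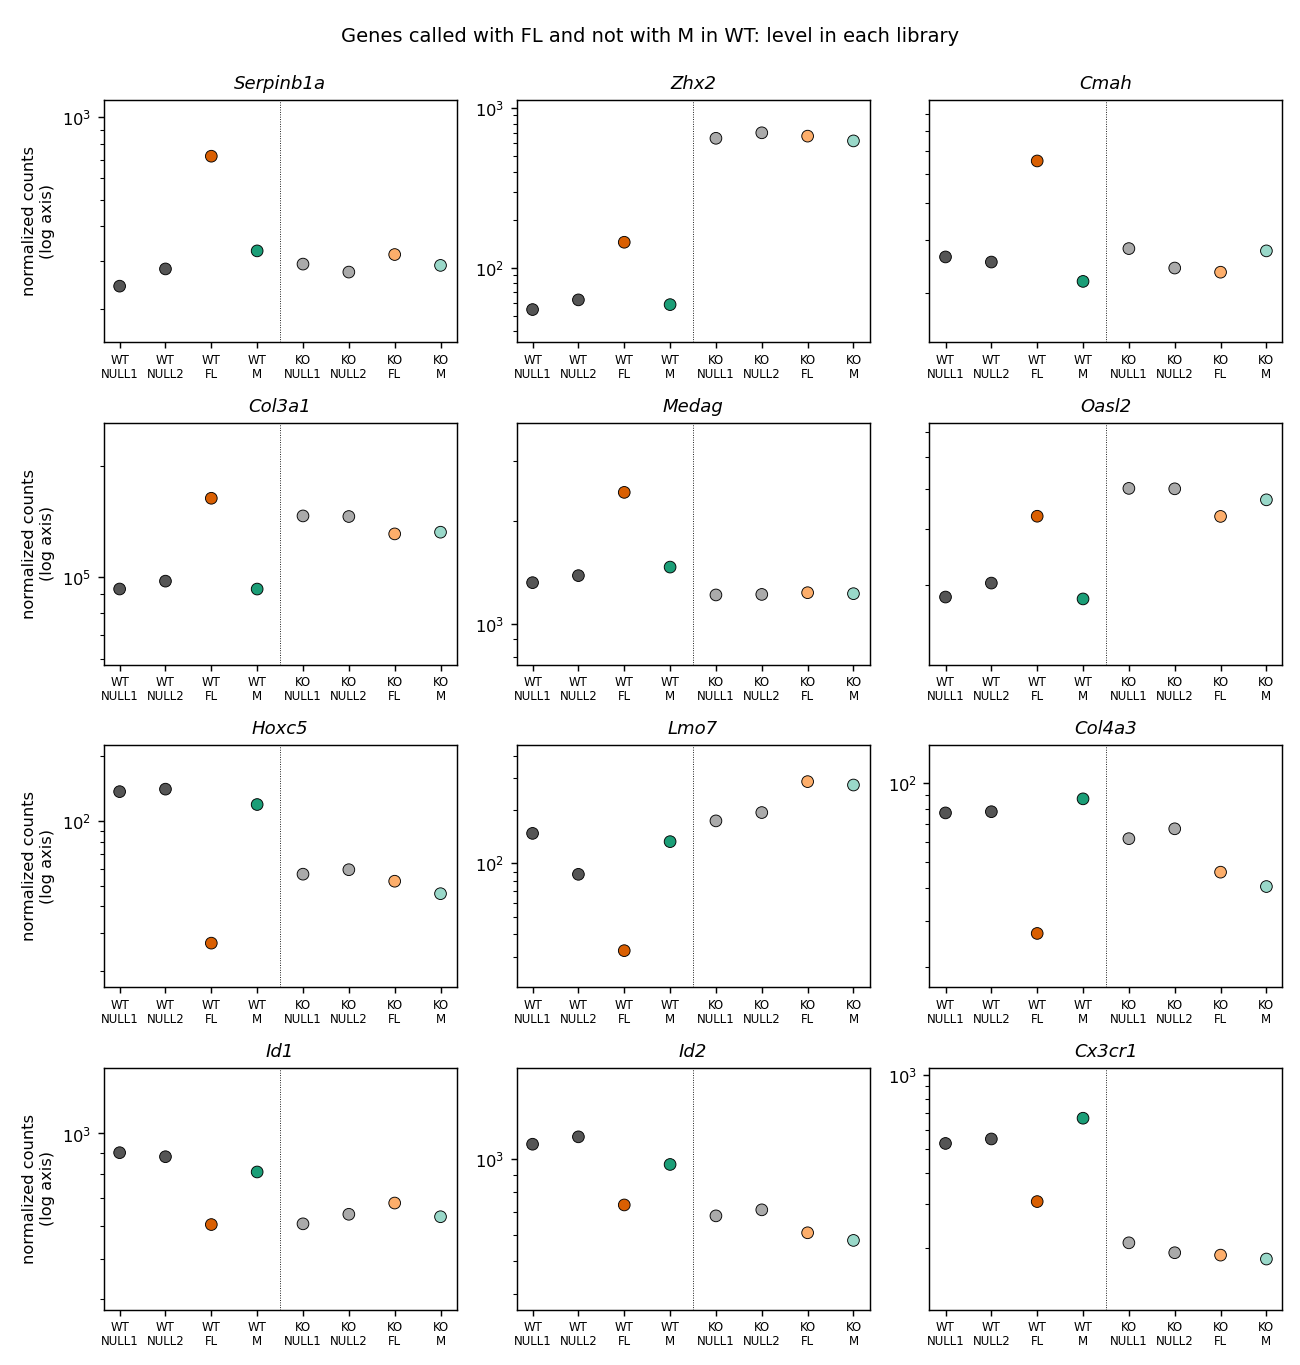
Normalized counts (log axis) of 12 FL-selective genes in each of the 8 libraries, WT at the left and KO at the right of the dotted line, 1 point per library. In the first 6 panels the WT FL library lies above the other 3 WT libraries, and in the last 6 below them, while the KO FL library stays near the KO NULL pair in panels such as Medag (1232 against 1213 and 1218).

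Homeobox genes were followed as a group after the fall of Hoxc5 was seen. Of 21 Hox genes tested, 5 were lower with FL (background 3.9%): Hoxa3, Hoxc4, Hoxc5, Hoxc6 and Hoxd8. Hoxc4 stood at 187 and 181 normalized counts in the NULL pair, 56.0 with FL and 109 with M. Hoxc6 stood at 68.0 and 72.7, then 27.7 with FL and 95.4 with M, and Hoxd8 at 35.9 and 40.6, then 4.29 and 22.6. Hoxc5 (chr15:102967443-103017429) and Hoxc6 (chr15:102998257-103011881) overlap on the plus strand, and Hoxc4 begins at 103018934, so reads may be shared between Hoxc5 and Hoxc6. None of the 8 Hoxb genes was called by limma, and their median log2 change was -0.03. At an unadjusted p below 0.05 lay 1 of the 8, against 3693 of all 15527 genes tested. In the KO FL library none of the 21 was called and the median was -0.02, and Hoxc4 there stood at 61.8 against 113 and 106. The call of Hoxc6 was lost whichever NULL library was left out (highest adjusted p = 0.0907), while Hoxc4, Hoxc5 and Hoxd8 kept theirs, and the count of 5 was 3 without any 1 of the NULL libraries.

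Interferon-induced genes formed the largest list and held the most called members by number. The contractile apparatus had a higher share, with 13 of 16 called. Interferon signals through STAT proteins to promoters that carry a response element, and the induced proteins sense, degrade or block viral nucleic acids. Of 45 tested interferon response genes, 32 were higher and 1, Ifi27, was lower with FL (background 3.5% higher), with a median log2 change of 0.57. With M, 23 were higher (background 22.5%) and 8 lower (background 26.8%), with a median of 0.41. The count of 32 was 20 without KO NULL 1 or 2, and 26 without WT NULL 1 or 2. The summed level of the list was 56400 and 57259 normalized counts in WT NULL, 79147 with FL and 67086 with M. In KO it was 117272 and 115990 in the NULL pair, 95247 with FL and 104341 with M, so every KO library lay above every WT library.

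Several members were called higher with both forms. Oas2, an RNA sensor that makes oligoadenylates, stood at 71.4 and 61.6 normalized counts in the NULL pair, 333 with FL and 299 with M (log2 with FL 2.31, SE 0.14, adjusted p = 0.00051). Zbp1, a sensor of left-handed nucleic acids, stood at 149 and 128, then 527 with FL and 635 with M (log2 1.92, SE 0.11). Irf7, the transcription factor that amplifies type I interferon, stood at 999 and 1056, then 2159 with FL and 2874 with M (log2 1.07, SE 0.06). The 2 IL-33 libraries lay above both NULL libraries in each of these genes. Ly6e rose in the same way, from 2379 and 2370 to 5790 and 6267 (log2 with FL 1.29, SE 0.04, adjusted p = 8.16e-05).

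Of the 45 members, 9 were called with FL and not with M (background 0.966%). Among them were Ddx60, Oas1b, Oasl2, Mx2, Ifit1, Ifih1, Isg15 and Samd9l. At 7 of them, not including Ddx60 and Mx2, the FL and M libraries also differed (background 0.747%). Oasl2, a relative of the oligoadenylate synthetases, stood at 1841 and 2035 normalized counts in the NULL pair, 3282 with FL and 1817 with M (log2 0.76, SE 0.07, adjusted p = 0.0020). Isg15, a ubiquitin-like protein that is attached to other proteins during viral infection, stood at 3965 and 4051, then 5630 with FL and 3915 with M (log2 0.49, SE 0.05, adjusted p = 0.0025). Ifit1, which binds viral RNA ends, stood at 1675 and 1759, then 2552 with FL and 1736 with M (log2 0.57, SE 0.06, adjusted p = 0.0030). For these 3 genes the FL library lay above the other 3 WT libraries, and the M library lay within or just under the range of the NULL pair. Ifih1, which encodes the RNA sensor MDA5, stood at 846 and 896, then 1233 and 881 (log2 0.50, SE 0.09, adjusted p = 0.0250). The calls of Oasl2, Isg15 and Ifit1 held whichever NULL library was left out, and those of Ifih1 and Oas1b did not (highest adjusted p 0.0711 and 0.0617).

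In the KO FL library, none of the 45 interferon genes was called higher by limma and 6 were called lower (background 0.167% lower), among them Ifit3, Ifit1, Irf7, Ifi44 and Isg15. The count of 6 was 1 without WT NULL 1 or 2 and 0 without KO NULL 1 or 2. At an unadjusted p below 0.05, 32 of the 45 differed in KO, against 2085 of all 15527 genes tested. The median log2 change of the 45 was -0.32. Isg15 had 8015 and 7754 normalized counts in KO NULL and 5998 with FL (log2 -0.39, adjusted p = 0.0455). Ifit1 stood at 4104 and 4212, then 2836 with FL (log2 -0.55, adjusted p = 0.0439). In both genes the KO FL library was the lowest KO library and the KO M library, at 6917 and 3481, lay between it and the NULL pair. The FL effect itself differed between the genotypes at 32 of the 45 genes, against 2.44% of all genes tested. This count was 8 and 10 without KO NULL 1 or 2, and 26 and 29 without WT NULL 1 or 2. For Isg15 the WT minus KO difference was 0.88 on the log2 scale (adjusted p = 0.0027, and 0.05003 at the highest with 1 NULL library left out).

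**Figure D3:**
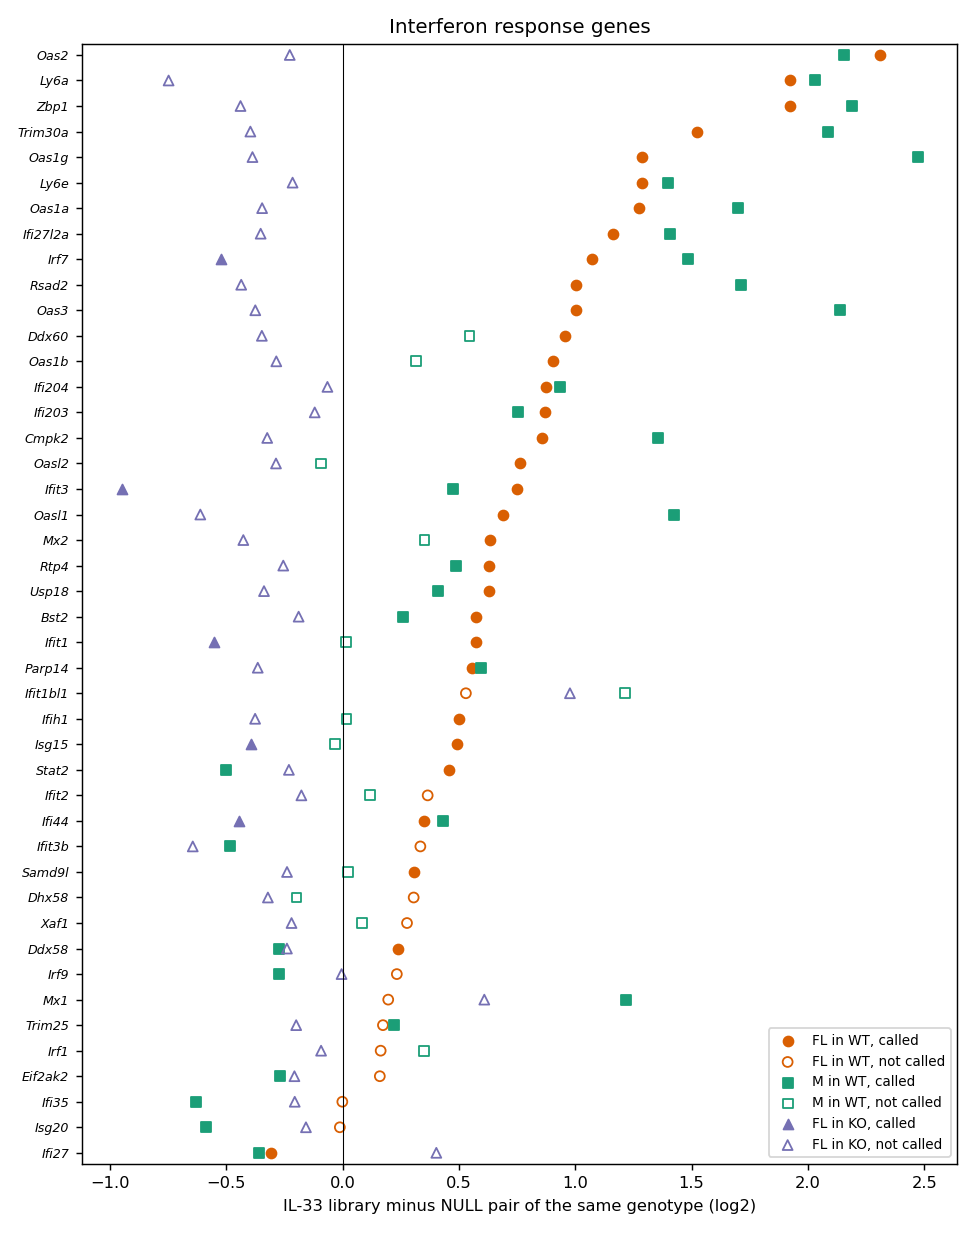
Log2 change of 44 of the 45 interferon response genes against the NULL pair of the same genotype, 1 gene per line, for FL in WT (circles), M in WT (squares) and FL in KO (triangles), with called changes filled. The circles lie right of 0 for 41 genes and most triangles lie left of it, and for Isg15, Ifih1 and Ifit1 the squares lie near 0.

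Promoters are shown for 4 FL-selective genes of the interferon and GTPase lists because an interferon-stimulated response element can be read in their letters. Each window runs from 250 bases before to 50 bases after the RefSeq start of the gene (GRCm38.p6), is written 5′ to 3′ on the gene's strand, and has matches to the motif in capitals. The motif searched is GAAA, 2 bases of any kind and GAAA again, on either strand, so that a match on the other strand reads TTTC, 2 bases and TTTC. Isg15 (chr4:156200769-156201068, minus strand) has 3 overlapping matches, the first beginning 78 bases before the start. Ifit1 (chr19:34640639-34640938, plus strand) has 2 on the opposite strand, 104 and 85 bases before it. Irgm2 (chr11:58214727-58215026, plus strand) has 1 match 64 bases before the start, and Ifih1 (chr2:62646206-62646505, minus strand) has 1 that lies 33 bases after it.
Isg15: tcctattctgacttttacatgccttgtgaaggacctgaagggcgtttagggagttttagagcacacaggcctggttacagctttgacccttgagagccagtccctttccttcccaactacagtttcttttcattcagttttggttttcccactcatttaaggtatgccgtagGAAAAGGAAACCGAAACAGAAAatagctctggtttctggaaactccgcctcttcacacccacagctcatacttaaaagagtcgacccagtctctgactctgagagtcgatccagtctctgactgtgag
Ifit1: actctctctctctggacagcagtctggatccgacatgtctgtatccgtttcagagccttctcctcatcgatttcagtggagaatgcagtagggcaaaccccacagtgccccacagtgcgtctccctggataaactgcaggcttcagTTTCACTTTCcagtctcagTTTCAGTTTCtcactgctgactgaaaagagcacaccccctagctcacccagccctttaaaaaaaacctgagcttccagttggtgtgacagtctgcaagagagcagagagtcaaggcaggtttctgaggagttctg
Irgm2: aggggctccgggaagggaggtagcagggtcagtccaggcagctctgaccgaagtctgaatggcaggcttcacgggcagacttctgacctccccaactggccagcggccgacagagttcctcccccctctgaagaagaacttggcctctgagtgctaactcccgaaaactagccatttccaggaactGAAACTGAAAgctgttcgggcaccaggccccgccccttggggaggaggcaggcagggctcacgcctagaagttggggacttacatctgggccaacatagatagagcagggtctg
Ifih1: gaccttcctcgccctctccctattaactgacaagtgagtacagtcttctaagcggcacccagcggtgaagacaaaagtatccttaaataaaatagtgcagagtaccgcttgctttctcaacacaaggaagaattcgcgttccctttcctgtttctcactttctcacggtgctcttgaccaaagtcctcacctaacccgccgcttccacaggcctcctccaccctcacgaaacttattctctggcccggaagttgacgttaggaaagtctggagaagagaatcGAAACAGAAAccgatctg
Over all 32851 windows in the RefSeq table, 3.44% hold such a match, and 8.56% hold a looser form that drops the last A. Counted by gene, as in the sets that follow, 3.99% of all genes with a window held a match. Of the tested genes with a window, 3.84% did. Among the members of the interferon, GTPase and MHC class I lists that were called with FL and not with M, 8 had a window and 5 of these held a match (Ddx60, Ifih1, Ifit1, Irgm2 and Isg15). Of the members of the same lists that were higher with both forms, 24 had a window and 14 held a match. Of all 68 FL-selective genes that were higher, 45 had a window and 7 held a match, the other 3 being Ccdc186, Clca3a1 and Plekha4. The lists are known interferon targets, so matches in them say nothing of binding in these cells.

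Other antiviral and antigen presentation genes were also among those called. Of 15 tested guanylate-binding proteins and immunity-related GTPases, which attack vacuoles of pathogens, 7 were higher with FL (median log2 0.77, background 3.5%) and 10 with M (background 22.5%), where 1 was lower. The count with FL was 3 and 4 without KO NULL 1 or 2. Irgm2 was the FL-selective member, with values of 1260 and 1214 normalized counts in the NULL pair, 1682 with FL and 1233 with M (log2 0.44, SE 0.06, adjusted p = 0.0112). Of 16 genes of MHC class I and antigen processing, 9 were higher with FL (median 0.37, background 3.5%), and 5 without KO NULL 1 or 2. The peptide loading factor Tapbp was the FL-selective member. The nonclassical class I gene H2-T24, which the list does not hold, stood at 194 and 183, then 333 and 221 (log2 0.82, SE 0.13, adjusted p = 0.0155). The calls of Irgm2 and H2-T24 were lost on leaving out at least 1 NULL library (highest adjusted p 0.0548 and 0.0556). In KO the medians with FL were -0.51 for the GTPases and -0.15 for MHC class I.

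NF-kB dependent cytokines and chemokines are the usual readout of ST2 signalling. Of 25 tested, 24 were higher with M (median log2 2.30, background 22.5% higher) and 3 with FL: Cxcl1, Ccl5 and Ccl2 (median 0.25, background 3.5%). Cxcl1, a neutrophil chemokine, stood at 13.1 and 18.3 normalized counts in the NULL pair, 50.6 with FL and 730 with M. Ccl2, a monocyte chemokine, stood at 554 and 609, then 787 with FL and 4542 with M. Both IL-33 libraries lay above the NULL pair, and the FL library lay nearer to it. No member of this list was FL-selective, and the 3 calls with FL were lost on leaving out at least 1 NULL library (highest adjusted p 0.0709 for Cxcl1, 0.081 for Ccl5 and 0.0942 for Ccl2). Of 7 tested genes of the type 2 response, Arg1 (102 and 96.7, then 263 with FL and 3523 with M) and Postn were higher with FL. Ccl17, a ligand of CCR4, was lower (61.1 and 52.3, then 19.1 with FL and 61.2 with M). Postn lost its call without KO NULL 1 or 2. Without KO NULL 1 or 2, 1 of the 7 was higher and 0 lower. The call of Ccl17 was lost whichever NULL library was left out (highest adjusted p = 0.115).

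The inducible chaperones Hspa1a and Hspa1b were higher with FL in both genotypes and lower with M in WT. These near-identical genes encode HSP70, which refolds damaged proteins, and lie at chr17:34969190-34972156 and chr17:34956436-34959238, so how reads were split between them is uncertain. Hspa1a had 403 and 415 normalized counts in WT NULL, 881 with FL and 317 with M (log2 with FL 1.11, SE 0.09, adjusted p = 0.0013; with M -0.37). In KO it stood at 498 and 516, then 2081 with FL and 474 with M (log2 with FL 2.04, adjusted p = 0.000936). Hspa1b stood at 1898 and 1815 in the WT NULL pair, 2914 with FL and 902 with M (log2 with FL 0.65, adjusted p = 0.0019), and in KO at 2788 and 2749, then 4876 with FL and 2647 with M (log2 0.82, adjusted p = 0.0062). In each genotype the FL library was thus the highest of the 4 for both genes, and Il33 normalized counts were also highest there. The FL effect on Hspa1a was smaller in WT than in KO by 0.93 on the log2 scale (WT minus KO -0.93, adjusted p = 0.0164). With 1 NULL library left out, Hspa1a kept its KO call (highest adjusted p = 0.0160), while the KO call of Hspa1b and the difference between genotypes for Hspa1a were lost at least once (0.117 and 0.109). Of 17 heat shock genes, 4 were higher (background 3.5%) and 3 lower (3.9%) with FL in WT, which became 2 and 0 without KO NULL 1 or 2, and 2 and 3 without WT NULL 1. The small chaperone gene Cryab was lower with FL (11128 and 10820, then 9003) and higher with M (12644), a call with FL that was lost on leaving out at least 1 NULL library (highest adjusted p = 0.0736).

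**Figure D4:**
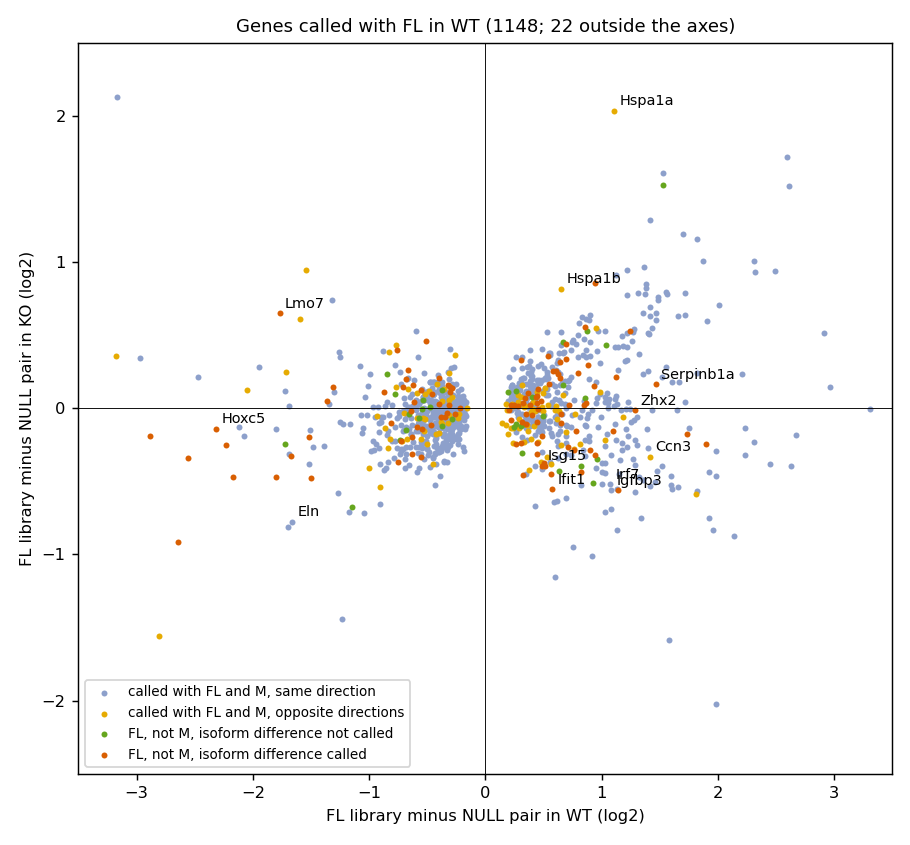
Each point is 1 of the 1148 genes called with FL in WT, placed by its log2 change with FL in WT (x axis) and in KO (y axis), each against its own NULL pair; 22 genes fall outside the axes. Hspa1a lies at 1.11 and 2.04, Isg15 and Ifit1 lie right of 0 and below it, and the 58 of 116 FL-selective genes with the same sign in both genotypes are matched by 58 without.

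The FL-selective genes were then read in the KO FL library, whose own values gave no call in WT but whose comparison shares the KO NULL pair and the spread. There 37 of all 15527 genes were called (0.238%), 11 higher (0.0708%) and 26 lower (0.167%). The count of 37 was 6 and 15 without KO NULL 1 or 2, and 15 and 14 without WT NULL 1 or 2. Of the 116 FL-selective genes, 3 were called there, and all 3, Isg15 and Ifit1 among them, moved opposite to WT. With any 1 of the NULL libraries left out, 0 of the 116 were called in KO. The sign of the change was the same in WT and KO for 58 of 116 (50%), against 53.6% of all genes tested. It was the same for 59.4% of the 1148 genes called with FL. This share was 62.5% of the 893 that moved alike with M and 44.8% of the 105 with opposite changes. For the 105 genes with opposite changes in FL and M, 2 were called in KO, Hspa1a and Hspa1b, both in the WT direction. For the 893 genes that moved alike with FL and M, 18 were called in KO and 11 of these in the WT direction. Il33, the transcript carried by the vectors, is among these 11, and another of them is a processed pseudogene. Without KO NULL 1 or 2, 2 of the 893 were called in KO, and without WT NULL 1 or 2, 7 and 6 were. Il33 is among the called genes in each of these counts. Thap1, a zinc finger transcription factor, had like values in both genotypes, at 257 and 237 normalized counts in WT NULL and 475 with FL, and at 243 and 291 in KO NULL and 483 with FL, but its KO change did not pass (log2 0.86, adjusted p = 0.122). The FL effect differed between genotypes at 2.44% of all genes tested and at 336 of the 1148 genes called with FL (29.3%). Among the 116 it differed at 35 (30.2%), a share near that of all genes called with FL. This contrast shares the WT libraries with the choice of the genes. That count was 3 and 5 without KO NULL 1 or 2, and 26 and 25 without WT NULL 1 or 2.

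Genes of the TGF-beta and BMP pathways were lower with FL where they were called. TGF-beta drives matrix production and contractility of fibroblasts, and BMP signals act through related SMAD proteins. Of 19 tested genes of the TGF-beta list, 7 were lower (background 3.9%), with a median log2 change of -0.21. The ligand gene Tgfb3 stood at 21496 and 20932 normalized counts in the NULL pair, 11170 with FL and 12037 with M (log2 -0.93, SE 0.04, adjusted p = 0.00021). The target Ccn2, a matricellular growth factor, stood at 126489 and 127990, then 83576 with FL and 68251 with M (log2 -0.61, SE 0.03). Of 17 BMP genes, 9 were lower with FL (median -0.37, background 3.9%), or 5 without KO NULL 1 or 2, and 3 of the 9 were FL-selective: Bmp5, Id1 and Id2. Over all genes tested, 0.747% were FL-selective. The ligand genes Bmp4 (2868 and 2768, then 1559 with FL and 758 with M) and Bmp6, and the antagonist gene Fst, were lower with both forms.

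Contractile genes and collagens followed different patterns. Of 16 genes of the contractile apparatus, 13 were lower with FL (median log2 -0.39, background 3.9%) and 15 with M (background 26.8%). Myh11, smooth muscle myosin, stood at 34072 and 34422 normalized counts in the NULL pair, 22762 with FL and 13278 with M (log2 -0.59, SE 0.03, adjusted p = 0.00051). Of 12 smooth muscle and pericyte markers, which share genes with that list, 6 were lower with FL, and their summed level was 465739 and 462204, then 345809 with FL and 264165 with M. Of 30 collagen and matrix genes, 9 were higher (background 3.5%) and 11 lower (3.9%) with FL (median -0.06), against 3 higher and 25 lower with M. With quantile normalization 8 were higher and 5 lower with FL, and without KO NULL 1 or 2 the counts were 4 and 5. Eln, which encodes elastin, stood at 228091 and 208660, then 68999 with FL and 18425 with M (log2 with FL -1.66, SE 0.06, adjusted p = 8.16e-05), and it also fell in the KO FL library, from 9082 and 9151 to 5323 (log2 -0.78, adjusted p = 0.0062), a KO call lost on leaving out at least 1 NULL library (highest adjusted p = 0.131). Col6a3 fell from 12839 and 12494 to 7059 with FL and 3046 with M.

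Several fibroblast genes were higher with FL and lower with M. Of 19 fibroblast markers, 5 were higher (background 3.5%) and 2 lower (3.9%) with FL (median log2 0.09), which became 1 and 1 without KO NULL 1 or 2, and 4 of the 19 had opposite changes in the 2 forms. Over all genes tested, 0.676% had such opposite changes. Col1a2, a chain of collagen I, stood at 271352 and 266825 normalized counts in the NULL pair, 314078 with FL and 139451 with M. Tcf21, a transcription factor of lung mesenchyme, stood at 216 and 245, then 405 with FL and 85.6 with M. Dcn, the proteoglycan decorin, stood at 8589 and 8873, then 11009 with FL and 6645 with M. In all 3 genes the M library was the lowest of the 4 and FL the highest, and the M library was also the one with more macrophage and mesothelial transcripts. The calls with FL of these 3 genes were lost on leaving out at least 1 NULL library (highest adjusted p 0.115, 0.0701 and 0.0545).

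The largest opposite changes under the naming rule lay in transporters, receptors and matricellular genes. Abca8a, a lipid transporter, stood at 102 and 104 normalized counts in the NULL pair, 363 with FL and 38.4 with M (log2 1.81 with FL and -1.40 with M). Ccn3, a matricellular protein related to CCN2, stood at 713 and 742, then 1937 with FL and 230 with M (log2 1.41 and -1.66). Adgrd1, an adhesion receptor, stood at 645 and 658, then 1483 and 224 (log2 1.19 and -1.54). Each of the 3, and the phospholipase gene Pla1a (log2 0.98 and -0.93), held its FL call whichever NULL library was left out. In the other direction Col4a4, a basement membrane collagen chain next to Col4a3, stood at 145 and 164, then 36.5 with FL and 275 with M (log2 -2.05 and 0.83). Cd74, the invariant chain of MHC class II, stood at 129 and 101, then 38.6 and 244. Atp8a1 and Asic3 were further falls. The FL calls of Cd74, Atp8a1 and Asic3 were lost on leaving out at least 1 NULL library (highest adjusted p 0.0691, 0.0833 and 0.118).

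In each of 2 metabolic lists the calls with FL lay in 1 direction. Of 19 genes of glycolysis and hypoxia, 11 were higher with FL (median log2 0.24, background 3.5%) and 13 with M (background 22.5%). Pfkl, the liver form of phosphofructokinase, was FL-selective, at 6549 and 6197 normalized counts in the NULL pair, 8314 with FL and 6165 with M (log2 0.38, SE 0.05, adjusted p = 0.0076). Bnip3, a hypoxia-induced mitophagy gene, was higher with both (3274 and 3488, then 5130 with FL and 3975 with M). The count of 11 was 3 without KO NULL 1 or 2. Of 22 genes of cholesterol synthesis and uptake, 10 were lower with FL (median -0.30, background 3.9%) and 18 with M (background 26.8%), and without KO NULL 1 or 2 the first count was 4. Sqle, squalene epoxidase, stood at 2405 and 2462, then 1293 with FL and 667 with M (log2 with FL -0.91, SE 0.07).

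Matrix proteases and the largest changes of the whole comparison are given next. Of 19 proteases and inhibitors, 6 were higher (background 3.5%) and 4 lower (3.9%) with FL, which became 4 and 0 without KO NULL 1 or 2. Mmp3, a stromelysin, stood at 73.1 and 89.4 normalized counts in the NULL pair, 446 with FL and 1709 with M (log2 with FL 2.45, SE 0.13, adjusted p = 0.00044), and Mmp13, a collagenase, at 115 and 148, then 604 and 3136. Adamts1 was higher with FL (5905 and 6148, then 9117) and lower with M (4997). Besides Il33, the largest rises included Ngfr, a neurotrophin receptor, which stood at 8.02 and 6.47, then 80.3 with FL and 15.1 with M (log2 with FL 3.31, SE 0.30), with all 4 KO libraries at 73.5 to 80.4. Pcdh10 (log2 2.97), Serpinb2 (2.91), Pbld1 (2.61), Dio2 (2.49), Adgrg2 (1.98) and Ly6a (1.92) followed. Among falls, Igfbp2, which binds insulin-like growth factors, stood at 24576 and 25864, then 7233 with FL and 3804 with M (log2 with FL -1.80, SE 0.05). Ano1 (-2.97), Eya2 (-2.12), Ramp1 (-1.95), Sept4 (-1.69) and Casq2 (-1.69) were further falls called with both, while AY036118, not called with M, stood at 15356 and 3214 in the NULL pair, 157 with FL and 1619 with M, and its call was lost without WT NULL 1 (highest adjusted p = 0.0805).

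**Figure D5:**
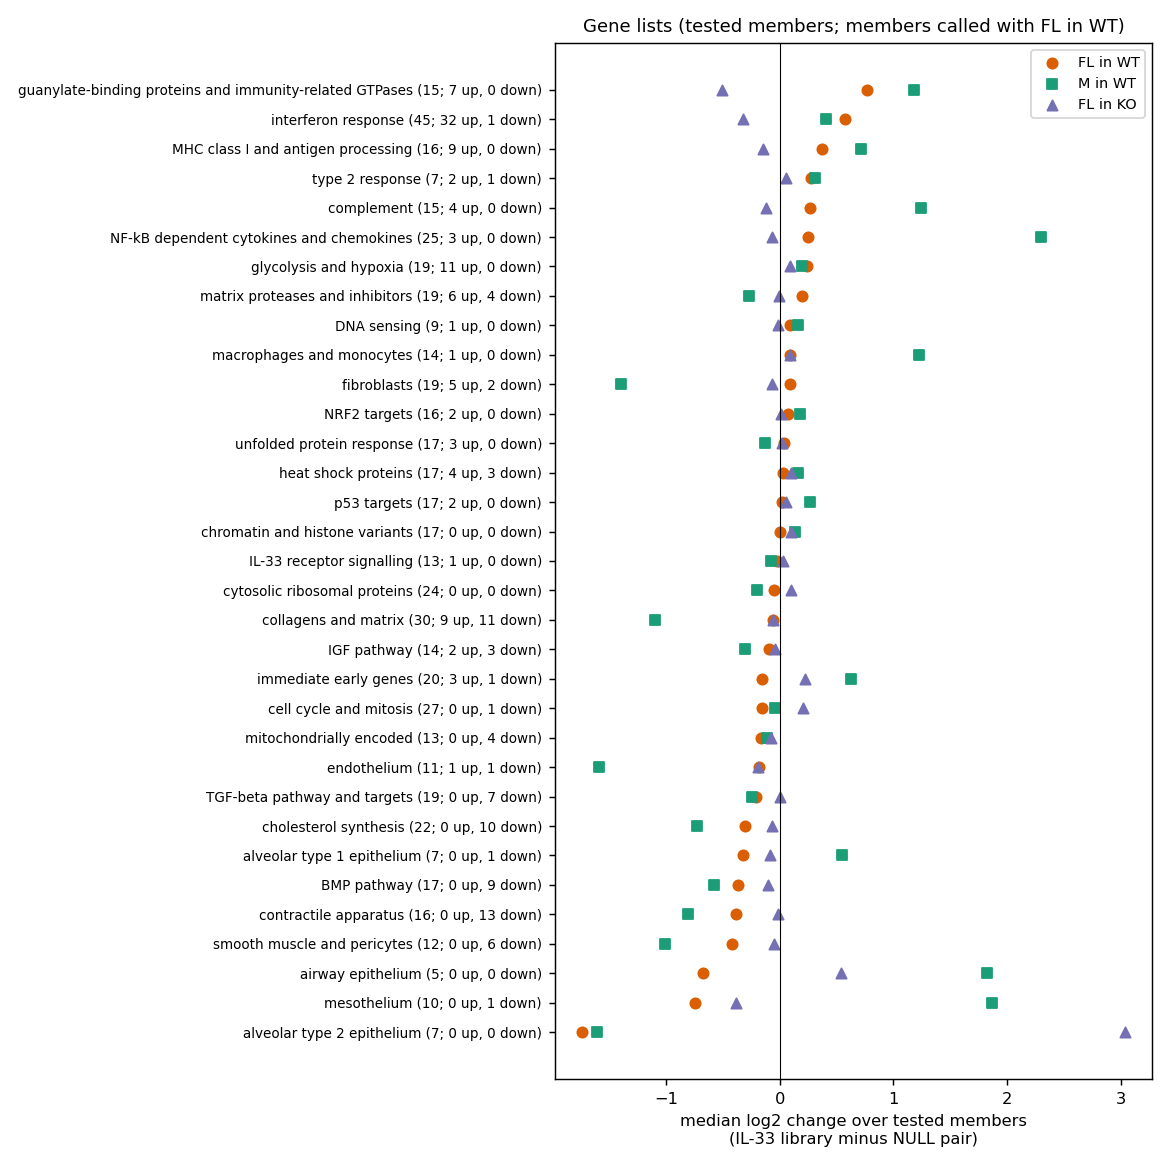
Median log2 change over the tested members of 33 gene lists with at least 5 such members, for FL in WT (circles), M in WT (squares) and FL in KO (triangles), each against its own NULL pair. The NF-kB list lies at 0.25 with FL and 2.30 with M, and the interferon list at 0.57 and 0.41 in WT and at -0.32 with FL in KO.

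The remaining lists had few called members with FL, where 3.5% of all genes tested were higher and 3.9% lower. Higher with FL were 4 of 15 complement genes (among them C4b, Cfb and Serping1), 3 of 17 genes of the unfolded protein response, 2 of 16 NRF2 targets, 2 of 17 p53 targets, 1 of 9 DNA sensing genes (Zbp1) and 1 of 13 genes of IL-33 receptor signalling (Il33). The FL-selective member of the unfolded protein response was Hspa5, the chaperone BiP (29297 and 30089, then 35202 with FL and 30912 with M; log2 0.25, SE 0.04, adjusted p = 0.0122). Its call was lost on leaving out at least 1 NULL library (highest adjusted p = 0.0882). Cfb also lost its call without KO NULL 1 or 2. Of 20 immediate early genes 3 were higher and 1 lower, and of 14 IGF pathway genes 2 were higher, Igfbp3 among them, and 3 lower. Lower with FL were 4 of 13 mitochondrially encoded genes and 1 of 27 cell cycle genes. Without KO NULL 1 or 2, the complement genes kept 2 calls, the NRF2 targets 1 and the mitochondrial genes 1. The unfolded protein response, p53, immediate early and cell cycle lists then had 0. Without WT NULL 1 or 2 the mitochondrial genes kept 2 calls, and 1 immediate early gene was higher without WT NULL 2. No member was called by limma among 17 chromatin and histone variant genes and 24 ribosomal protein genes. Of these, 4 and 6 had an unadjusted p below 0.05, against 3693 of all 15527 genes tested.

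Markers of other cell types showed few calls with FL. Of 11 endothelial markers, Vwf was higher (41.9 and 37.6, then 116 with FL) and Emcn lower (81.7 and 103, then 21.0), and both calls were lost whichever NULL library was left out (highest adjusted p 0.105 and 0.122). Of 7 alveolar type 1 markers 1 was lower, and of 4 neural crest and Schwann cell markers 1 was higher. Both calls were lost without KO NULL 1 or 2, and the neural crest call also without WT NULL 1. Over all genes tested, 3.5% were called higher and 3.9% lower. No alveolar type 2 marker (7 tested, 5 at an unadjusted p below 0.05), airway marker (5 and 2), marker of T, B and NK cells (3 and 1), of mast cells, ILC2 and eosinophils (4 and 0) or of neutrophils (2 and 0) was called by limma. Over all genes tested, 3693 of 15527 had an unadjusted p below 0.05. The median log2 change with FL in WT was -1.74 over the 7 alveolar type 2 markers, all below both WT NULL libraries. With 8 added before log2, 3 of these 7 were called lower. The median was -0.74 over the 10 mesothelial markers, 7 below and 2 above both NULL libraries. Summed alveolar type 2 markers were 5504 and 4944 normalized counts in WT NULL, 3829 with FL and 3163 with M. Cd3e, Klrb1c, Fcer1a, Il13, Klrg1, Ly6g, Ngp and Retnlg were at 0 in all 8 libraries.

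The genes called with FL and not with M, which include the FL-selective genes, were also placed on the genome. These 150 genes lay on 21 chromosomes, and 7 neighbouring pairs lay within 100 kb of each other. Both genes of each pair moved the same way, including Dtx3l and Parp9, which overlap on opposite strands, Agrn and Isg15, and Daxx and Tapbp. Overlapping or adjacent genes can share reads, which was not tested. No like count of pairs, or of their shared direction, was made over all genes tested. The 7 pairs are therefore not shown to be more than other genes would give.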

How the data were processed

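RNA was measured in 8 fibroblast libraries. The authors deposited normalized counts per Ensembl gene, a signal scale that is no longer raw counts. The submitters' processing notes name Salmon, DESeq2 and the build GRCm38.p6, with no versions. The deposited columns summed to between 2.39e+07 and 2.92e+07. Low values were whole multiples of a step, within 0.02 of a read, for 50.4% to 70.9% of values, so whole reads were not recovered and no count test was run. The precision is therefore given by the spread between libraries.

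Of 54331 gene IDs, 54097 matched a symbol. From the deposited normalized counts, log2(value + 1) was computed for genes with a mean of at least 10, and limma 3.58.1 in R 4.3.3 was fitted with a mean-variance trend to 6 groups. Fold changes are on that scale, which understates changes of low genes. All spread came from the NULL pairs, and each lone IL-33 library was assumed to vary like them. P-values were adjusted over all 15527 genes by Benjamini-Hochberg and called below 0.05, and every adjusted p printed comes from limma. No label used here says that the NULL pairs came from separate cultures, so p-values may measure technical spread alone. Tables were built in Python 3.11.15 with pandas 2.3.3 and numpy 2.4.6, and plots with matplotlib 3.10.9. The fit was also run on simulated data in which every library was given the spread of the NULL pairs. That run does not check how the lone IL-33 libraries vary.

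The genes named were Il33 and Il1rl1, the 12 largest rises and 12 largest falls with FL, the 15 largest each way among FL-selective genes, the 5 largest each way among opposite changes (each with a mean of at least 50), and up to 4 members of each list with the smallest p. Others are named after their values were seen. The members and the 37 lists were chosen with earlier results of these data known. Alternatives were the added constant, the filter, the scaling, the WT libraries alone, a block for the NULL numbers and leaving out each library. Promoter sequences are from RefSeq. The unseparated cells were not analysed here. Some genes that the rule names are not reported here.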

Additional observations from a re-analysis of the deposited data

Results flagged for a closer look

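The FL effect differed between WT and the libraries labelled KO for 64 of 108 genes examined by name, by the interaction term of the limma fit across all genes at an adjusted p below 0.05. The value beside each gene is the log2 change with FL in WT minus that in KO. It was above 0 for 37 genes and below 0 for 27. The contrast shares the WT FL and NULL libraries with the choice of these genes, and each genotype has 1 FL library. Over all genes tested 2.44% were called by this term. The count of 64 was 14 and 16 without KO NULL 1 or 2, and 47 and 52 without WT NULL 1 or 2.

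Among FL-selective genes, the WT effect lay above the KO effect for Plekha4 (1.70), Serpinb1a (1.30), Zhx2 (1.30), H2-T24 (1.25), Cmah (1.25), Oas1b (1.19), Ifit1 (1.12), Oasl2 (1.05), Col3a1 (0.94), Isg15 (0.88), Ifih1 (0.88), Medag (0.82) and Irgm2 (0.68). It lay beneath for Lmo7 (-2.42), Hoxc5 (-2.17), Thnsl1 (-1.16), Ly75 (-0.93) and Id1 (-0.68). Among genes with opposite changes in FL and M, the WT effect lay above the KO effect for Abca8a (2.39), Ccn3 (1.74), Adgrd1 (1.25), Adamts1 (0.61), Dcn (0.57), Serping1 (0.53) and Col1a2 (0.36). It lay beneath for Cd74 (-2.49), Col4a4 (-2.18), Hspa1a (-0.93) and Cryab (-0.36). Among genes that moved alike with FL and M, the WT effect lay above the KO effect for Ngfr (3.31), Mmp3 (2.83), Pcdh10 (2.82), Ly6a (2.67), Oas2 (2.54), Serpinb2 (2.40), Zbp1 (2.36), Adgrg2 (2.28), C4b (2.09), Mmp13 (1.97), Igfbp3 (1.64), Irf7 (1.59), Dio2 (1.55), Ccl5 (1.53), Ly6e (1.501), Arg1 (1.14) and Mmp10 (0.88). It lay beneath for Ano1 (-3.32), Ramp1 (-2.23), Sept4 (-1.71), Igfbp2 (-1.66), Casq2 (-1.37), Cspg4 (-1.16), Tgfb3 (-0.93), Col6a3 (-0.89), Eln (-0.88), Sqle (-0.75), Il33 (-0.74), Fst (-0.70), Ccn2 (-0.65), Mylk (-0.62), Hspb1 (-0.57), Tagln (-0.51), Myh11 (-0.47) and Ltbp2 (-0.32).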

How the results depend on the processing

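The counts for M against NULL and for FL against M stayed within 1.5 times of the values reported under every alternative run, as did all counts with 0.5 or 8 added, a mean of at least 50, rescaling by trimmed means, and quantile normalization, where 55.5% of the FL calls were higher against 47.3% as reported. Without a filter on low values the FL calls in WT were 1300, of which 80% were higher, the FL calls in KO 732, the differences between genotypes 1658, the genes called with FL and not with M 711 and the FL-selective genes 709. Of these, 338 of the 1148 and 26 of the 116 were shared with those reported. With the WT libraries alone the counts were 443 with FL, 55 with FL and not M, and 48 FL-selective, sharing 37 of the 116. With a replicate block for the NULL numbers they were 430 with FL in WT, 3 in KO, 54 between genotypes, 41 with FL and not M, and 39 FL-selective. The numbers gave no evidence of pairing (r = 0.023 across genes between the number differences of the 2 NULL pairs). Leaving out 1 library gave 438 to 1152 FL calls in WT, 6 to 35 in KO, 40 to 381 between genotypes, 51 to 151 with FL and not M, and 42 to 117 FL-selective. The FL calls in KO were 15 without WT NULL 1, 14 without WT NULL 2 and 22 without WT M. None of the 108 genes examined by name reversed a called FL change in WT under any alternative run. Other genes named here, and changes with M or in KO, were not checked in this way. Except where fewer libraries or more genes enter the test by construction, the cause was not tested. The NULL pairs alone set the spread, and a call that was lost does not show the absence of a change.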

Other observations

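Genes of alveolar type 2 cells followed another pattern across the libraries. Sftpc, surfactant protein C, had 969 and 765 normalized counts in WT NULL, 233 with FL and 147 with M, and 1.36 and 0 in KO NULL, 162 with FL and 156 with M. Sftpb, surfactant protein B, stood at 177 and 160, then 49.6 and 54.3 in WT, and at 0 and 0.639, then 55.8 and 57.3 in KO. Both genes were thus listed at or near 0 in KO NULL alone. They were among the genes called higher with FL in KO (log2 6.73 and 5.47), as was another alveolar type 2 marker. Epithelial cell content was not measured apart from these transcripts.

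Cxadr, the cell surface receptor for adenovirus, had 215 and 209 normalized counts in WT NULL, 322 with FL and 1097 with M, and 240 and 219 in KO NULL, 102 with FL and 135 with M. It was higher with FL in WT (log2 0.60, adjusted p = 0.0436) and lower with FL in KO (log2 -1.16, adjusted p = 0.0439), and both calls were lost on leaving out at least 1 NULL library (highest adjusted p 0.112 and 0.306). Alpk2, a kinase gene, was higher with FL in both genotypes, at 141 and 152, then 393 in WT and 237 and 225, then 564 in KO (log2 1.42 and 1.28), a KO call lost on leaving out at least 1 NULL library (highest adjusted p = 0.184). All 4 genes are named with their values in view.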
